A study of Canis lupus familiaris with 15 samples.

Results

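The genes described here were 6 matrix metalloproteinases (MMP13, MMP9, MMP2, MMP14, MMP1 and MMP3) and 4 of their inhibitors (TIMP1, TIMP2, TIMP3 and RECK) in canine osteosarcoma. They are 10 of the 15115 genes that the array names, chosen by family, and all of their probesets that carry a single gene symbol were taken, 19 of the 42860 tested. Snap frozen primary tumors of 15 pet dogs were collected at limb amputation before any chemotherapy, and total RNA of each was hybridised to 1 Affymetrix Canine 2.0 array. The cohorts are defined by the disease free interval (DFI), the time from treatment to metastasis. The DFI < 100 day cohort held 8 dogs of 4.4 to 10.8 years, with 5 osteoblastic and 3 giant cell tumors, and the DFI > 300 day cohort 7 dogs of 7.1 to 13.4 years, with 6 osteoblastic tumors and 1 poorly differentiated one. Greyhounds were 3 dogs of the first cohort and 1 of the second, and dogs of mixed breed were 1 and 4. The first cohort also held 1 Doberman and 1 Labrador Retriever, and each cohort held 1 Golden Retriever and 1 Rottweiler. After amputation the dogs received doxorubicin, a platinum drug or both. The dogs carried no engineered allele, and each tumor is a mixture of malignant bone cells with whatever osteoclasts, macrophages, stroma and vessels it held.

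Matrix metalloproteinases are zinc-dependent enzymes that cut the proteins of the extracellular matrix. They are made as inactive precursors, and tissue inhibitors of metalloproteinases (TIMPs) bind and block the active enzymes. In bone, osteoclasts are known for abundant MMP9 and osteoblasts and hypertrophic chondrocytes for MMP13, and osteosarcoma can hold many osteoclast-like giant cells.

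Values are log2 of the PLIER signal, so a difference of 1 is a 2-fold change. Each gene is represented by its brightest probeset unless another is named, and levels of different probesets are not compared. The background level was 6.79, set by reporter control probesets that match no dog gene, and a probeset with a mean at or under it is described as near background. Of the member probesets, 12 of 19 were above it, and of the brightest ones 8 of 10. The exceptions were MMP14, with a mean of 6.48 in each cohort, and RECK, with 6.05 and 6.63.

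The arrays parted by their spike controls, RNAs added at known amounts. The mean of the poly-A spikes was 7.80 to 8.53 in 6 arrays (3 of each cohort) and 9.01 to 9.60 in the other 9 (5 of DFI < 100 and 4 of DFI > 300). The log2 ratio of 3′ to 5′ control probesets was also lower in the former, at 1.10 to 1.93 against 2.01 to 2.88. The median signal of an array was 46.6 to 54.7. The study hybridised its arrays in 2 batches, and the batch of each array is not given in the sources used here. Whether the spike sets are those batches was not tested, and cohort differences are given within each set where their sign differed.

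The question of the study was which genes set apart the tumors of dogs with a short DFI, and no member passed the test between the cohorts. MMP13 was 1.99-fold higher in DFI < 100 by its mean, MMP9, MMP2 and MMP3 were within 1.08-fold, and all 4 inhibitors had lower means in DFI < 100, by log2 differences between 0.14 and 0.58. Each of these differences was within the spread between dogs, and the values of the cohorts overlapped for 10 of 10 genes. The share of all probesets with such overlap is not given here, so that count does not set the members apart. With limma, 0 of 10 genes passed an adjusted p of 0.05, as did 0% of all probesets. At an unadjusted p under 0.05 the count was 0 of 10 with limma, where 3.68% of all probesets passed, and 0 of 10 with the methods' t-test, where 3.66% did. Means were higher in DFI < 100 for 4 members and lower for 6, with a median difference of -0.07 beside 0.01 over all probesets.

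**Figure D1:**
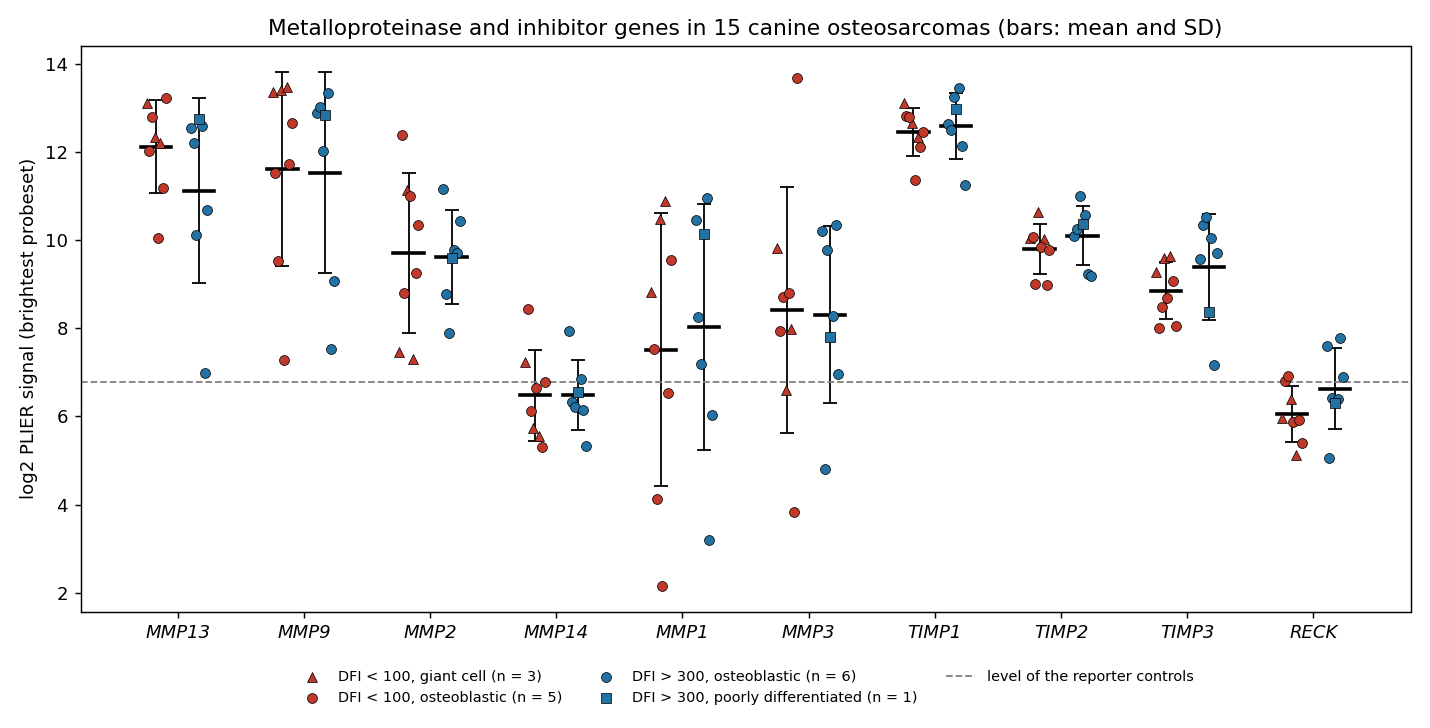
Log2 PLIER signal (y axis) of the brightest probeset of each member (x axis) for the 8 dogs of DFI < 100 and the 7 of DFI > 300, with point shape showing tumor subtype, a bar at the mean of each cohort, error bars of 1 SD and a dashed line at the reporter level (6.79). The cohorts overlap for every gene, and dogs 208756 and 193231 lie at the bottom for MMP9 (7.27 and 7.54) and MMP1 (2.16 and 3.20).

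Among the collagenases, which cut fibrillar collagen, MMP13 (collagenase 3) ran from 10.05 through a median of 12.28 to 13.22 in DFI < 100 and from 6.98 through 12.19 to 12.75 in DFI > 300. The lowest value by far was that of dog 193231, and the medians lay within 0.1 of each other. The means were 12.12 ± 1.06 (SD, n = 8) and 11.12 ± 2.10 (SD, n = 7), a difference of 0.99 (standard error 0.79, 95% interval -0.68 to 2.67, limma adjusted p = 0.999). Its other probeset gave 1.13 (standard error 0.96). The difference was 0.30 without dog 193231, 2.75 within the 6 arrays of low spike signal and -0.24 within the other 9, so its sign depended on the set of arrays.

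MMP1 (collagenase 1) ran from 2.16 through 8.18 to 10.90 in DFI < 100 and from 3.20 through 8.26 to 10.96 in DFI > 300. It lay below the background level in 3 dogs of the first cohort, 208756 (2.16), 184844 (4.12) and 212759 (6.54), and in 2 of the second, 193231 (3.20) and 208513 (6.03), while its highest values were at similar height in both. The means differed by -0.52 (standard error 1.43, 95% interval -3.56 to 2.53, limma adjusted p = 0.999).

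The gelatinases, which cut denatured collagen and the collagen of basement membranes, were above background in all 15 dogs. MMP9 (gelatinase B) ran from 7.27 through 12.19 to 13.47 in DFI < 100 and from 7.54 through 12.83 to 13.34 in DFI > 300. Each cohort had tumors near the top of the range, and the low ones were dogs 208756 and 184844 (9.52) of DFI < 100 and dogs 193231 and 208513 (9.07) of DFI > 300. The means were 11.62 ± 2.21 (SD, n = 8) and 11.53 ± 2.28 (SD, n = 7), a difference of 0.09 with a 95% interval of -2.22 to 2.39, and of 0.50 and -0.25 within the arrays of low and high spike signal. MMP2 (gelatinase A), typically a product of stromal and mesenchymal cells, ran from 7.29 through 9.80 to 12.38 and from 7.89 through 9.72 to 11.15. Its highest value was that of the osteoblastic tumor of dog 173175, and its lowest ones those of giant cell tumors of dogs 208911 and 153599 (7.46). The cohort difference was 0.09 (95% interval -1.48 to 1.66), and it was 0.42 and -0.18 within those sets.

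MMP3 (stromelysin 1), which cuts proteoglycans and activates other MMP precursors, ran from 3.83 through 8.35 to 13.67 in DFI < 100 and from 4.82 through 8.27 to 10.34 in DFI > 300. This was the widest range of any member, and both extremes were osteoblastic tumors of DFI < 100, dog 212759 at the bottom and dog 223986 at the top. The bottom of the range was below the background level, in dogs 212759 and 204714 (6.60) of DFI < 100 and 180119 (4.82) of DFI > 300. The difference was 0.11 (95% interval -2.42 to 2.64), and it was -0.64 and 0.73 within the arrays of low and high spike signal. MMP14, a membrane-bound enzyme that activates the MMP2 precursor, ran from 5.32 through 6.39 to 8.44 in DFI < 100 and from 5.32 through 6.33 to 7.94 in DFI > 300. The highest of its values were those of dogs 173175 (8.44), 168327 (7.94) and 153599 (7.23), and most others were near background. Its difference was within 0.01 of 0 (95% interval -0.98 to 0.97), and it was 0.86 and -0.53 within the arrays of low and high spike signal.

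TIMP1 and TIMP2 had a smaller spread than any of the proteases. TIMP1, a secreted inhibitor of most MMPs, ran from 11.36 through 12.55 to 13.12 in DFI < 100 and from 11.24 through 12.64 to 13.44 in DFI > 300. The lowest dogs were 208756 and 208513, 1 in each cohort. Its SD over the dogs of a cohort was 0.54 and 0.75, and that of TIMP2 0.56 and 0.67, against values from 0.80 (MMP14 in DFI > 300) to 3.10 (MMP1 in DFI < 100) for the proteases. TIMP2, which both inhibits MMP2 and takes part in its activation by MMP14, ran from 8.99 through 9.93 to 10.64 and from 9.19 through 10.25 to 11.003. TIMP3, the inhibitor that binds to the matrix itself, ran from 8.01 through 8.88 to 9.63 and from 7.17 through 9.72 to 10.53. The DFI > 300 values of TIMP3 reached both lower and higher than those of DFI < 100.

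For these inhibitors the cohort differences were -0.14 for TIMP1 (95% interval -0.83 to 0.54), -0.30 for TIMP2 (-0.95 to 0.35) and -0.55 for TIMP3 (-1.53 to 0.44). The 4 probesets of TIMP3 all had lower means in DFI < 100, by -0.55, -0.17, -0.23 and -0.26, the latter 2 on probesets near background. RECK, a membrane-anchored inhibitor of several MMPs, ran from 5.12 through 5.94 to 6.92 in DFI < 100 and from 5.05 through 6.42 to 7.79 in DFI > 300. It was above the background level in 5 of 15 dogs, and the highest were dogs 193231 and 168327 (7.59). Its difference of -0.58 (standard error 0.38, 95% interval -1.40 to 0.23) had the smallest unadjusted p of the members, 0.149 by limma. The intervals of MMP9, MMP1 and MMP3 reached beyond 2 on the log2 scale in both directions, while those of TIMP1 and TIMP2 stayed within 1.

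Within DFI < 100, giant cell tumors were set against osteoblastic ones, since every giant cell tumor was in that cohort. MMP1, MMP9 and TIMP3 had higher means in the 3 giant cell tumors, by 16.9-fold, 7.33-fold and 2.05-fold, and MMP2 a 3.30-fold lower one. None of these passed correction for all probesets. By limma, 0 of 10 members reached an adjusted p of 0.05, where 0.00933% of all probesets did, and 3 of 10 an unadjusted p under 0.05, where 6.9% did. Means were higher in giant cell tumors for 6 members and lower for 4, with a median difference of 0.55 beside -0.05 over all probesets. Of the members, 2 were higher with no overlap between the subtypes, where 2.68% of all probesets were, and 0 were lower with none, where 2.6% were.

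MMP9 was 13.37, 13.40 and 13.47 in the giant cell tumors of dogs 153599, 204714 and 208911. In the 5 osteoblastic tumors of the cohort it was 7.27, 9.52, 11.52, 11.74 and 12.65. The giant cell tumors lay within 0.1 of each other and above every osteoblastic tumor of that cohort. The means of 13.41 ± 0.052 (SD, n = 3) and 10.54 ± 2.15 (SD, n = 5) differed by 2.87 (standard error 1.12, 95% interval 0.30 to 5.45, unadjusted p = 0.033, limma adjusted p = 0.697). In DFI > 300 the osteoblastic tumors of dogs 190030 (13.34) and 180119 (13.01) came close to the level of giant cell tumors, so high MMP9 was not restricted to that subtype.

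MMP1 was 8.82, 10.47 and 10.90 in the giant cell tumors and 2.16, 4.12, 6.54, 7.54 and 9.56 in the osteoblastic ones. The ranges overlapped only through dog 223986, whose osteoblastic tumor (9.56) was above the lowest giant cell tumor. The difference was 4.08 (standard error 1.55, 95% interval 0.51 to 7.65, unadjusted p = 0.0299, limma adjusted p = 0.694), and its other probeset gave 4.57 (standard error 1.70). Since several of the osteoblastic values were below the background level, the size of this difference is not well bounded.

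TIMP3 was 9.28, 9.59 and 9.63 in the giant cell tumors against 8.01, 8.06, 8.48, 8.68 and 9.08 in the osteoblastic ones, with no overlap. The difference was 1.04 (standard error 0.29, 95% interval 0.38 to 1.70, unadjusted p = 0.0067, limma adjusted p = 0.595). The second TIMP3 probeset gave 0.75, and the others, near background, 1.05 and 0.32. Osteoblastic tumors of DFI > 300 went beyond the level of the giant cell tumors, dog 180223 to 10.53 and dog 180119 to 10.34.

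MMP2 was 7.29, 7.46 and 11.14 in the giant cell tumors and 8.79, 9.25, 10.35, 11.01 and 12.38 in the osteoblastic ones. The first 2 lay below every osteoblastic tumor and the third among the highest, so the groups overlapped, with a difference of -1.72 (standard error 1.09, 95% interval -4.24 to 0.79). The second MMP2 probeset gave -1.39, and the third, near background, 0.39. TIMP2 differed by 0.69 (standard error 0.33), MMP13 by 0.70 (0.69), TIMP1 by 0.41 (0.37), MMP14 by -0.50 (0.70), MMP3 by -0.46 (1.90) and RECK by -0.35 (0.44). For these 6 genes the interval included 0 and the subtypes overlapped.

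**Figure D2:**
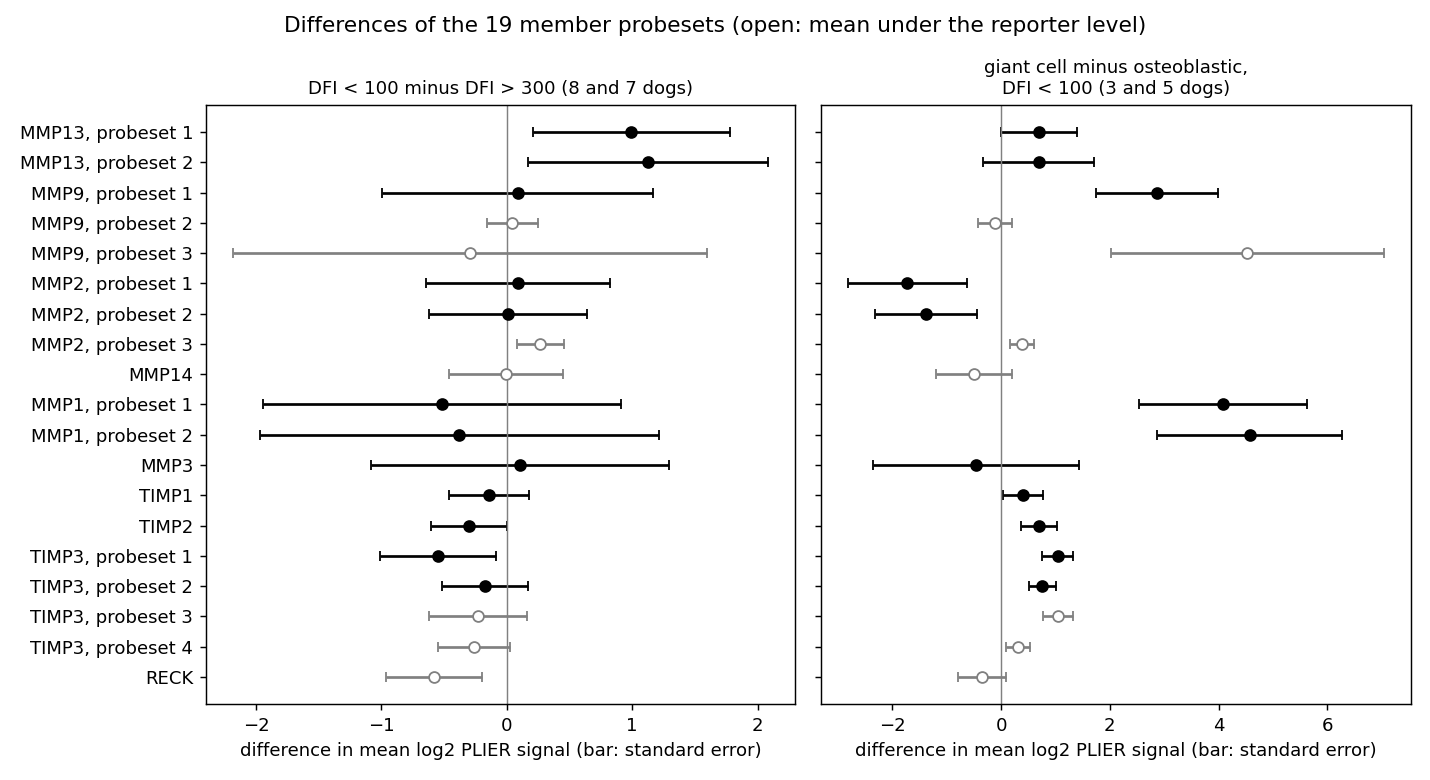
Differences in mean log2 PLIER signal (x axis) of the 19 member probesets (y axis, open points for means under the reporter level), with bars of 1 standard error from limma, for DFI < 100 minus DFI > 300 (left, 8 and 7 dogs) and for giant cell minus osteoblastic tumors within DFI < 100 (right, 3 and 5 dogs). The cohort difference furthest from 0 is 1.13 for the second MMP13 probeset, and some differences exceed their error bar, as that of RECK does (-0.58, standard error 0.38). The subtype differences are furthest from 0 for MMP1 (4.08 and 4.57) and MMP9 (2.87, and 4.52 on a probeset near background). In both panels none passed correction over all probesets.

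Markers of other cells differed between the same subtypes. The mean of 13 measured osteoclast genes was 8.31 to 8.65 in the giant cell tumors and 6.32 to 7.93 in the osteoblastic ones, and 11 of the 13 were higher, 8 of them at an unadjusted p under 0.05 and 0 at an adjusted one. Endothelial genes were higher in 8 of 8, with 3 at an unadjusted p under 0.05, and list means of 7.64 to 9.05 against 6.92 to 7.63. Macrophage genes were higher in 6 of 12, with list means of 8.03 to 8.80 against 6.89 to 8.52, and 3 of them (CD68, TYROBP and CD14) at an unadjusted p under 0.05. Osteoblast genes were higher in 4 of 12 and lower in 8, with overlapping list means of 9.27 to 10.61 against 8.87 to 10.91. Among them RUNX2, the osteoblast transcription factor that also drives MMP13, differed by -1.34 (unadjusted p = 0.0073, limma adjusted p = 0.595). The part of these cells in the MMP9, MMP1 and TIMP3 differences was not tested. In bulk tumor RNA, more cells of a type and more RNA per cell cannot be told apart.

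Osteoclast content was followed with ACP5 (tartrate-resistant acid phosphatase, the enzyme by which osteoclasts are stained). MMP9 rose with ACP5, and TIMP1 rose as well with a smaller slope. With each dog left out in turn, MMP9 passed in 15 of 15 fits and TIMP1 in 11. Neither passed without the giant cell tumors. MMP1 had the steepest slope, positive under every setting run, but its adjusted p passed under some of them only, and MMP3, MMP14 and MMP2 showed no slope that passed the test. Of the members, 2 of 10 had a slope with an adjusted p under 0.05 by limma, where 1.17% of all probesets did, 0.905% with a positive slope and 0.264% with a negative one. Of the probesets above background alone, 1.52% did. Slopes were positive for 8 members and negative for 2, MMP2 and RECK, with a median of 0.09 beside -0.0025 over all probesets. At an unadjusted p under 0.05 the count was 5 of 10, where 13% of all probesets passed.

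ACP5 ran from 5.28 in dog 208756 to 13.05 in dog 208911 in DFI < 100, and in DFI > 300 from 1.01 in dog 208513 and 6.96 in dog 193231 to 12.34 in dog 190030. Most tumors lay above 11, and the lowest value was far below the background level. The genes of osteoclasts other than ACP5 moved with it, 6 of 12 with an adjusted p under 0.05 by limma and a correlation of the list's mean with ACP5 of 0.929. The 4 macrophage genes CD68, CD14, CSF1R and TYROBP did too, of 12 measured. Osteoclasts, which come from the same lineage, are known to express several of these 4 as well. The other 8 genes of the list, CD163, MSR1 and C1QA among them, did not pass, with limma adjusted p of 0.154 to 0.953.

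MMP9 had a slope of 0.54 per unit of log2 ACP5 (standard error 0.087, 95% interval 0.35 to 0.73, limma adjusted p = 0.0080). Over the 15 dogs Pearson's r was 0.849 (permutation p = 0.00035) and Spearman's rho 0.943 (permutation p = 1e-05, the smallest that 100000 resamples can give). Without dogs 208513 and 208756, the 2 farthest from the median of ACP5, r was 0.970. It was 0.990 within DFI < 100 and 0.805 within DFI > 300, and 0.989 and 0.882 within the arrays of low and high spike signal. The tumor that departed from the line was that of dog 208513, with ACP5 at 1.01 and MMP9 still at 9.07. Without that dog the slope of MMP9 was 0.89, above the interval given, so its size depended on this tumor. The slope passed with each of the 15 dogs left out in turn, with a largest adjusted p of 0.018, but not without the 3 giant cell tumors (0.51, limma adjusted p = 0.065).

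MMP9 was on 3 probesets, of which a second one near background gave a slope of 0.95 (limma adjusted p = 0.0063). The third, near background as well and made from the same sequence entry, had r = 0.10 with ACP5 and a slope that did not pass. The probeset names alone do not tell which of these 2 reads the gene's transcript.

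TIMP1 had a slope of 0.15 (standard error 0.031, 95% interval 0.08 to 0.21, limma adjusted p = 0.034), with r = 0.799 (permutation p = 0.00076) and rho = 0.564 (permutation p = 0.0317). Without dogs 208513 and 208756 r was 0.403 and the slope 0.10 with a limma adjusted p of 0.683, so the call rested on the 2 tumors lowest in ACP5. Without dogs 153599, 208756, 188084 and 208513 in turn the adjusted p was 0.055, 0.079, 0.056 and 0.236, at slopes of 0.14, 0.13, 0.14 and 0.16. Within spike sets r was 0.914 and 0.899, above that of all dogs together, and with the set as a term the adjusted p was 0.0097. TIMP1 was lower by 0.67 on average in the arrays of high spike signal.

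MMP1 had a slope of 0.60 (standard error 0.15, 95% interval 0.27 to 0.93) but a limma adjusted p of 0.0808, with r = 0.708 (permutation p = 0.0038) and rho = 0.825 (permutation p = 0.00026). Without the 2 farthest dogs r was 0.857. The slope was 1.14 with a limma adjusted p of 0.0023 without dog 208513, whose MMP1 of 6.03 was the highest of the 3 tumors lowest in ACP5. Pearson's r was 0.944 and 0.633 within DFI < 100 and DFI > 300, and 0.913 and 0.732 within the arrays of low and high spike signal.

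For the other collagenase, MMP13, the slope was 0.26 (standard error 0.11, limma adjusted p = 0.287), with r = 0.545 (permutation p = 0.0503) and 0.663 without the 2 farthest dogs, while rho was 0.479 and 0.264. TIMP2 had a slope of 0.11 (standard error 0.039, limma adjusted p = 0.244), with r = 0.591 (permutation p = 0.0174) and 0.689 without those dogs. TIMP3 and RECK had r = 0.229 and -0.391 over all dogs, and 0.682 and -0.686 without the 2 dogs, so that r lay farther from 0, in opposite directions, when those tumors were left out. Within the arrays of low spike signal r was 0.797 for TIMP3 and -0.945 for RECK, and in the others -0.018 and -0.357. MMP2, MMP14 and MMP3 had r = -0.308, 0.268 and 0.001, with limma adjusted p of 0.670, 0.731 and 0.9995. In this family 10 relations were computed, and their adjusted p is over all probesets.

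**Figure D3:**
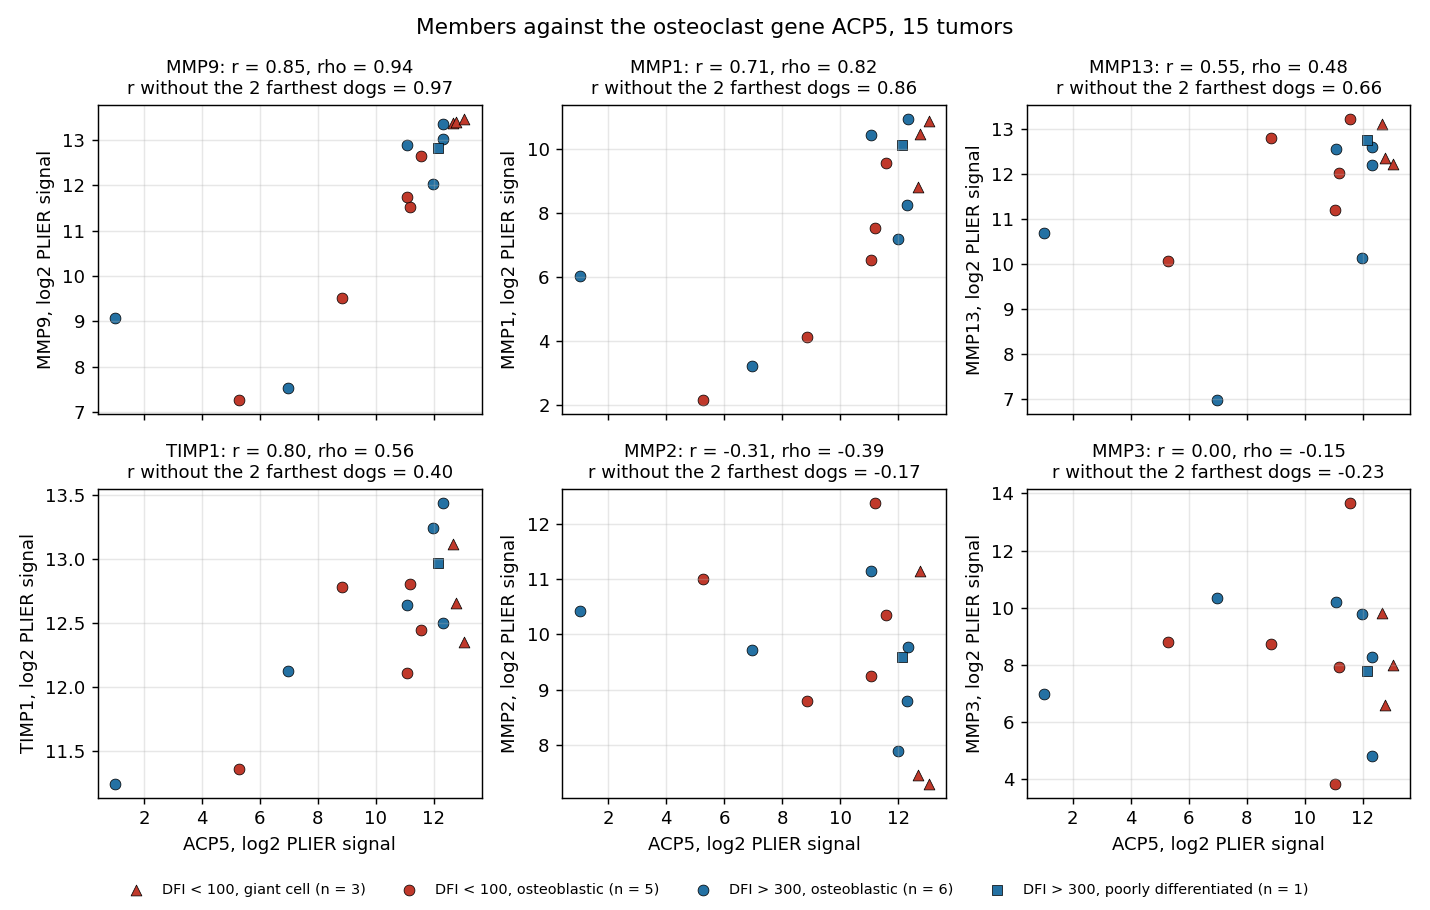
Log2 PLIER signal of MMP9, MMP1, MMP13, TIMP1, MMP2 and MMP3 (y axis, 1 panel a gene, scales differ) against that of ACP5 (x axis) in the 15 tumors, with points coloured by cohort and shaped by subtype. MMP9 climbs along ACP5 (r = 0.849), MMP1 does so with more scatter (r = 0.708), TIMP1 climbs over a narrow range of its own (11.24 to 13.44), and MMP3 has no slope (r = 0.001).

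The members were then set against each other over the 15 dogs. Of 45 pairs 30 had a positive correlation, a count for which the share over all pairs of probesets is not given here. In both directions 1 pair, MMP9 with MMP1, passed an adjusted p of 0.05 by limma over all probesets. Among all probesets, 0.751% had such a slope on MMP9, 0.215% on MMP1, 0.0537% on MMP2, 0.00467% on MMP13, 0.00467% on MMP14 and 0.00233% on TIMP1, and 0% on each of the other members. Their Pearson's r was 0.939 (permutation p = 1e-05) and rho 0.90 (permutation p = 4e-05), with a larger limma adjusted p of 0.000266. It was 0.872 without dogs 208756 and 193231, the farthest in MMP9, 0.966 and 0.925 within DFI < 100 and DFI > 300, 0.948 and 0.938 within the spike sets, and 0.937 without giant cell tumors. Thus the gelatinase and the collagenase rose and fell together in each subset of dogs examined.

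The next pairs did not pass. MMP13 with MMP9 had r = 0.737 (permutation p = 0.00266) and 0.423 without dogs 193231 and 208756, and MMP13 with MMP1 had 0.688 (permutation p = 0.00398) and 0.429 without them, so both rested on these 2 tumors, low in all 3 proteases. MMP9 with TIMP1 had r = 0.674 (permutation p = 0.0069) and 0.529 without the 2 dogs. Within the arrays of low and high spike signal it was 0.923 and 0.904, and on deviations from the set means r was 0.901 with a limma adjusted p of 0.0078, which passed. TIMP1 with TIMP2 had r = 0.608 (permutation p = 0.0155) and rho = 0.693, and TIMP2 with TIMP3 had r = 0.517 (permutation p = 0.0486). MMP2 had no correlation with another member at a permutation p under 0.05, and neither had MMP14, MMP3 or RECK.

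**Figure D4:**
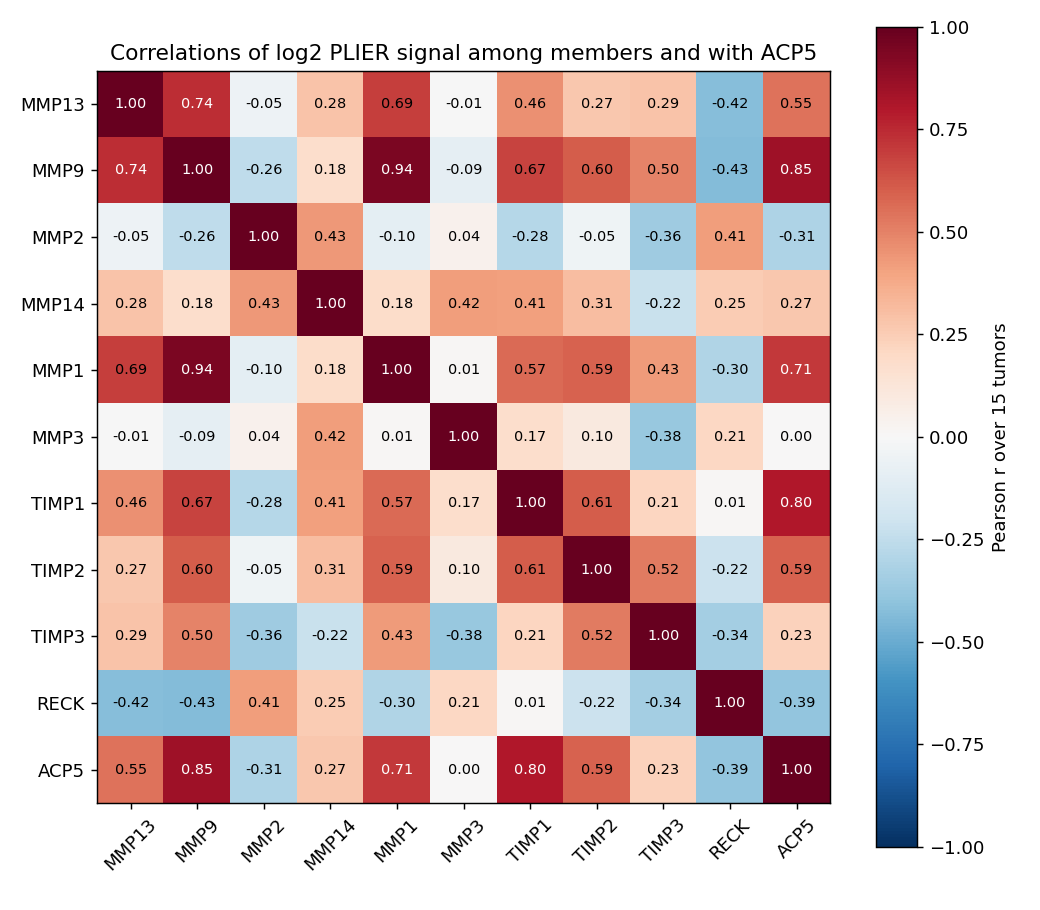
Pearson's r (colour and number) between the brightest probesets of the 10 members and ACP5 (both axes) over the 15 tumors. The strongest cell off the diagonal is MMP9 with MMP1 (0.94), the pairs among MMP9, MMP1, MMP13, TIMP1 and TIMP2 are positive (0.27 to 0.94), and MMP2 and MMP3 have no r beyond 0.43 in size.

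MMP13, MMP3 and MMP1 lie side by side on dog chromosome 5 in the RefSeq annotation of assembly UU_Cfam_GSD_1.0, with MMP12 between the former 2. MMP12, for which no probeset carries a single symbol, was not analysed here. These neighbours did not move as 1 block. MMP3 had no correlation at a permutation p under 0.05 with MMP13 or MMP1. MMP13 with MMP1 had r = 0.688 (permutation p = 0.00398), and 0.429 without dogs 193231 and 208756. MMP1 was correlated most with MMP9, which lies on chromosome 24.

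Over all genes above background, those whose pattern was most like that of a member over the 15 dogs were listed by Pearson's r, as a description. For MMP9 they were DPP4 (a cell surface peptidase, 0.967), MMP1 (0.939) and RAC2 (a GTPase of blood-derived cells, 0.933), and for MMP1 they were MMP9, DPP4 (0.877) and ABCC5 (0.874). For MMP13 they were SPP1 (osteopontin, a bone matrix protein, 0.875), CUTA (0.851) and PDPN (podoplanin, 0.826). For MMP2 they were TMPRSS2 (0.884), FAM160A2 (0.873) and GNMT (0.863), and for MMP3 TMEM123 (0.804), TMEM45A (0.779) and NR4A1 (0.777). TIMP1 had CDH16 (0.868), PDIA5 (0.844) and SQOR (0.816), TIMP2 had MYH9 (0.868), SNCG (0.863) and SLC6A8 (0.852), and TIMP3 had LOC480264 (0.863), ZFAND5 (0.847) and DPYD (0.846). DPP4 was near the top for both MMP9 and MMP1, and the 3 genes listed for each of TIMP1, TIMP2 and TIMP3 were all different.

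The members were also set against the mean of 9 lists of cell type genes, 90 relations in all. An unadjusted permutation p under 0.05 was found for 18, a count for which the share over all probesets is not given here. By limma, 2 passed an adjusted p of 0.05 over all probesets. Both were with the osteoclast list, MMP9 (r = 0.900, limma adjusted p = 0.00066) and MMP1 (r = 0.789, limma adjusted p = 0.022), where 1.4% of all probesets had such a slope. On the other lists the share was 0.39% for macrophages, 0.378% for endothelium, 0.0187% for T cells, 0.007% for cartilage, 0.00233% for stroma and 0% for osteoblasts, neutrophils and skeletal muscle. TIMP1 with the osteoclast list had r = 0.722 and a limma adjusted p of 0.081. MMP13 (r = 0.655) and TIMP2 (r = 0.673) with that list were among the 18 too, at limma adjusted p of 0.123 and 0.124. ACP5 is itself among the 13 measured genes of the osteoclast list, so relations with that list partly repeat those with ACP5. The endothelial list was also among the 18, with MMP9 (r = 0.641), MMP1 (0.643), TIMP2 (0.582) and TIMP1 (0.544). Their limma adjusted p was 0.194 to 0.367. So were the macrophage list with MMP9 (r = 0.560) and the cartilage list with MMP9 (-0.539) and TIMP1 (-0.580), and these did not pass either. Of the 18, those of MMP2, MMP14 and MMP3 were with the stromal list, at limma adjusted p of 0.750 to 0.780. Those of RECK were with the stromal, osteoblast and osteoclast lists, the last with r = -0.515 and a limma adjusted p of 0.326, and none of these passed.

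Other genes of the family and of its pathway were mostly dim. Of 18 further MMP and TIMP genes 14 were measured and 2 were above background, MMP16 (9.46) and MMP25 (6.98). None of the 14 reached an unadjusted p under 0.05 between the cohorts by limma, where 6 had higher and 8 lower means in DFI < 100. Between the subtypes 1 did, MMP21 (-0.65 in giant cell tumors, limma adjusted p = 0.689), at a mean of 4.20 near background. On ACP5, 1 of the 14 passed, MMP27 with a slope of 0.61 (limma adjusted p = 0.046), at a mean of 0.73, far below background. Of 11 other matrix proteases measured, 1 passed on ACP5, the lysosomal protease CTSB (slope 0.12, limma adjusted p = 0.034), and 1, the aggrecanase ADAMTS4, had an unadjusted p under 0.05 between the cohorts (0.79 higher in DFI < 100, limma adjusted p = 0.999). Of 12 activators and cofactors and 13 transcription factors of MMP genes measured, 0 passed an adjusted p in any of the 3 comparisons. At an unadjusted p under 0.05 between the cohorts these were 1, the plasminogen gene PLG (0.81 higher in DFI < 100, limma adjusted p = 0.999), which was near background, and 0, and between the subtypes 0 and 2, RUNX2 and NFKB1 (0.97 higher in giant cell tumors, limma adjusted p = 0.660).

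Cell type genes were checked in the same way. The osteoblast list, the lineage of these tumors, had 9 of 12 measured genes above background and a mean of 8.87 to 10.91 over the 15 dogs. The mean of the osteoclast list was 6.32 to 8.65 in DFI < 100 and 4.89 to 8.45 in DFI > 300, and that of the macrophage list 6.89 to 8.80 and 6.51 to 10.30. Of the osteoclast (13 measured), osteoblast (12), cartilage (10), macrophage (12), neutrophil (6), stroma (10), endothelial (8), T cell (7) and skeletal muscle (7) genes, 1 had an unadjusted p under 0.05 between the cohorts, the stromal FBLN1 (-1.01 in DFI < 100, limma adjusted p = 0.999). Besides the osteoclast and macrophage genes given above, 1 gene of these lists passed on ACP5, SPP1 of the osteoblast list (slope 0.25, limma adjusted p = 0.036), the gene whose pattern was most like that of MMP13.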

How the data were processed

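Total RNA of 15 canine osteosarcomas was labelled and hybridised to Affymetrix Canine 2.0 arrays, 1 per dog. The authors selected RNA by integrity, hybridised in 2 batches and summarised probesets with PLIER in Affymetrix Expression Console (version not given). The deposited values are intensities on the linear scale, 1 per probeset and array; the normalization before PLIER is not given in the sources used here. PLIER can leave unstable variance at low signal, which widens log2 differences of dim probesets. Cohorts came from the sample labels, and subtype from the study's table of dogs by dog number.

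Of 43035 probesets, 175 controls were left out, and the remaining 42860 were set on the log2 scale without an offset. The platform annotation gave 1 symbol for 29254, several for 439 and none for 13167. The background level is the mean over arrays of the 95th percentile of 64 reporter controls. Models were fitted with limma 3.58.1 (lmFit, eBayes, 2-sided) in R 4.3.3, with Benjamini-Hochberg adjustment over all probesets, for the cohort (8 against 7 dogs), the subtype within DFI < 100 (3 against 5) and the slope on ACP5. Correlations used permutation tests with 100000 resamples in Python 3.11.15 with scipy 1.17.1. Pairs were adjusted over all probesets in place of the pairs alone, since the members were chosen with results known. The pair called had to pass with either gene as the regressor. Each array is 1 dog, so p-values measure the spread between dogs; an array gives no read depth, and precision is limited by how many there are.

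The members and gene lists were chosen with earlier results of these data known. Genes named besides the members were ACP5, up to 4 genes a list with the smallest unadjusted p under 0.05 in a comparison, and the 3 genes above background most correlated with each member above background; not all are described. The lists were further MMP and TIMP genes, other matrix proteases, activators and cofactors, transcription factors and 9 cell types. ACP5 is in the osteoclast list, so the mean of that list is not independent of it. The alternatives were the methods' t-test (unpaired, 2-tailed), 16 added before log2, quantile normalization, only probesets above the reporter level, age, cohort or the ratio of 3′ to 5′ controls as a term, the osteoclast list in place of ACP5, Spearman correlation, deviations from cohort means, the mean of a gene's probesets, osteoblastic tumors only, no giant cell tumors, all giant cell and osteoblastic tumors with the cohort as a term, no Greyhounds, and each dog left out. Chosen after seeing the data were the spike sets, the other ACP5 probeset and leaving out the 2 dogs farthest in ACP5. The steps were tested on simulated data.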

Additional observations from a re-analysis of the deposited data

How the results depend on the processing

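No paired analysis was possible because the labels carry no replicate numbers and each dog is in 1 cohort. Across all alternatives no member passed an adjusted p of 0.05 between the cohorts or between the subtypes. With one dog left out in turn, the count of members passing in both comparisons was 0 throughout, that on ACP5 ran from 1 to 2, and that of pairs was 1 throughout. The count on ACP5 was 0 without the giant cell tumors, and that of pairs 2 on deviations from the spike set means. Small cohort differences changed sign with the processing. That of MMP14 was 0.011 with 16 added, 0.033 with quantile normalization, 0.11 with the 3′ to 5′ ratio as a term, 0.19 in osteoblastic tumors only and 0.028 with the spike set as a term. That of MMP2 was -0.45 with age as a term and -0.0048 without Greyhounds, and that of MMP3 -0.29 and -0.86. That of MMP9 was -0.018 with the 3′ to 5′ ratio, -0.77 in osteoblastic tumors only, -0.47 without Greyhounds and -0.054 as the mean of its probesets. The subtype difference of MMP3 was 2.05 without Greyhounds. The slope of MMP3 on ACP5 was -0.022 with 16 added, -0.0025 with the cohort, -0.016 with the 3′ to 5′ ratio and -0.018 with the spike set as a term, -0.011 with the osteoclast list, -0.051 with the other ACP5 probeset and -0.33 without the 2 farthest dogs. With each dog left out, the cohort difference ran from -0.58 to 0.71 for MMP9, -0.29 to 0.44 for MMP2, -0.28 to 0.24 for MMP14, -1.32 to 0.25 for MMP1, -0.64 to 0.76 for MMP3 and -0.37 to 0.015 for TIMP1, the subtype difference from -1.65 to 0.81 for MMP3 and -0.64 to 0.00057 for RECK, and the slope on ACP5 from -0.0011 to 0.092 for MMP14 and -0.20 to 0.049 for MMP3. The slope of MMP1 on ACP5 passed with 16 added (0.65, limma adjusted p = 0.033) and in probesets above background only (0.038). It also passed with the osteoclast list, which holds ACP5 itself (0.022), with the other ACP5 probeset (0.025) and without the 2 farthest dogs (0.020). Over all alternatives its adjusted p ran from 0.0023 to 0.246 (without giant cell tumors). The slope of TIMP1 no longer passed with the osteoclast list (limma adjusted p = 0.081) or without giant cell tumors (0.069), the latter at a slope of 0.16 and r = 0.840. The causes were not tested. Signal over background limits MMP14, RECK and the low values of MMP1 and MMP3, and 7 or 8 dogs a cohort limit the rest.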
